A study of Mus musculus with 3 samples.

Results

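The genes examined were the nuclear genes of oxidative phosphorylation (OXPHOS), taken as the protein-coding genes of the GENCODE M21 annotation on nuclear chromosomes whose symbols carry the stem of a subunit of respiratory complexes I to V. The stems were Nduf followed by a, b, c, s or v and a number (complex I), Sdha to Sdhd (complex II), Uqcr (complex III), Cox4 to Cox8 followed by a, b or c (complex IV) and Atp5 (complex V). They gave 83 gene entries out of 21938 nuclear protein-coding genes, with 37 entries in complex I, 4 in complex II, 8 in complex III, 16 in complex IV and 18 in complex V. The entries carried 82 symbols, because Atp5o had 2 entries. The libraries came from mouse cortices at the embryonic stage E13.5, with 1 library each of input chromatin, of NF-Y-ChIP with an antibody against the NF-YC subunit and of H3K4me3-ChIP. The peak lists of NF-Y-ChIP (733 peaks) and H3K4me3-ChIP (18816 peaks) were read at these genes, and the input library has no peak list used here. Each antibody had 1 library from dissected tissue, so no replicate error could be given, no test was run, and a weak peak in all cells cannot be told apart from a strong one in few. The depth behind each peak is unknown, because read counts are not part of the lists.

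Oxidative phosphorylation is the process by which the inner mitochondrial membrane turns the energy of nutrients into ATP. Complexes I to IV pass electrons to oxygen and, except for complex II, pump protons, and complex V, the ATP synthase, uses the returning protons to make ATP. Most subunits are encoded in the nucleus and a few in the mitochondrial genome, so that nuclear promoters must supply most of each complex. NF-Y is a trimer of NF-YA, NF-YB and NF-YC that binds CCAAT in promoters, and trimethylation of lysine 4 of histone H3 (H3K4me3) marks the promoters of active genes. As a check of the tissue, all 11 listed markers of cortical progenitors and neurons had an H3K4me3-ChIP peak at a transcription start site (TSS), meaning no more than 1000 bp from it, with the lowest fold enrichment, 4.61, at Neurod6. The median over these markers was 30.1, against 39.9 over all genes with such a peak. Of 11 markers of other cells and tissues, 4 had one, and 62.8% of all nuclear protein-coding genes did. The peak covered a TSS at Col1a1 (fibroblasts, 4.76) and Mbp (oligodendrocytes, 39.4), but began 385 bp away at Cldn5 (endothelium, 9.38) and 466 bp away at Ckm (muscle, 17.6), upstream of which Klc3 starts in the opposite direction.

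At 4 OXPHOS genes an NF-Y-ChIP summit lay at most 1000 bp from a TSS, and the sequences under 3 of those summits, at Ndufb3, Atp5b and Atp5e, are shown for the position of the NF-Y motif, which the summit at Ndufa2 also carries. Each is the 101 bp centred on the summit, read 5′ to 3′ on the strand of the gene from the GRCm38.p6 reference, and the capitals mark CCAAT or its reverse complement ATTGG. Ndufb3 is at chr1:58586328-58586428 (plus strand), Atp5b at chr10:128083105-128083205 (plus strand) and Atp5e at chr2:174464103-174464203 (minus strand). The single copy at Ndufb3 stood 32 bp from the summit, whereas a copy at Atp5b was centred 7 bp and one at Atp5e 1 bp from it.
Ndufb3: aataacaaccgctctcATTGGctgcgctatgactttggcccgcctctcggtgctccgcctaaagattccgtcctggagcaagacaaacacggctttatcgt
Atp5b: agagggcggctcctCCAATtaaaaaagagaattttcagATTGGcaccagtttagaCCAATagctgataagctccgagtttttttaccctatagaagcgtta
Atp5e: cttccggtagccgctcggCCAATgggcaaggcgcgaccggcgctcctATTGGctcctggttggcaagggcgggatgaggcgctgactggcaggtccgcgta

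Other OXPHOS promoters held as many copies of the motif without an NF-Y-ChIP peak, and 3 of these are shown for comparison. Each is the 100 bp upstream of the gene's 5′ end on its own strand, in the same reference and with the same capitals. Atp5g1, which encodes the membrane ring subunit c of complex V, is at chr11:96075671-96075770 (minus strand). Ndufs8, an iron-sulfur subunit of complex I, is at chr19:3912775-3912874 (minus strand). Ndufb11, an accessory subunit of the membrane arm of complex I, is at chrX:20617620-20617719 (minus strand). Atp5g1 held 4 copies in these 100 bp, of which 2 overlap in the run CCAATTGG, and Ndufs8 and Ndufb11 held 2 each.
Atp5g1: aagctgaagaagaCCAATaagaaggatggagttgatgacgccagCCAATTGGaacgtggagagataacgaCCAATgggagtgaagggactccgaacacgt
Ndufs8: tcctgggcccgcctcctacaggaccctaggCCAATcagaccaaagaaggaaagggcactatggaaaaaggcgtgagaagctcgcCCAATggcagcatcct
Ndufb11: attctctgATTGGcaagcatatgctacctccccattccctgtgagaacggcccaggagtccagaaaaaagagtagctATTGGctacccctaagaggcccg

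NF-Y-ChIP summits were found at 4 of the 83 OXPHOS entries (4.82%, Wilson 95% confidence interval 1.89 to 11.7%). The share among all nuclear protein-coding genes was 3.17%, which lies inside this interval. With the stronger 50% of peaks by fold enrichment only Ndufb3 was left (1.20%), against 1.69% of all genes. Among genes whose TSS had H3K4me3-ChIP signal by the same limit, termed marked genes below, the shares were 4 of 76 OXPHOS entries (5.26%) and 5.03% of all. The frequency of NF-Y-ChIP summits at OXPHOS promoters was thus near that of other genes. All intervals given here cover the sampling of genes only, since peaks of 1 library are not replicates. By complex, summits lay at 2 of 37 entries of complex I (Ndufa2 and Ndufb3), and at 2 of 18 of complex V (Atp5b and Atp5e). None lay at the 4 entries of complex II, the 8 of complex III or the 16 of complex IV, for which the upper limits of the intervals were 49.0%, 32.4% and 19.4%. Numbers this small do not separate the complexes from each other.

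**Figure D1:**
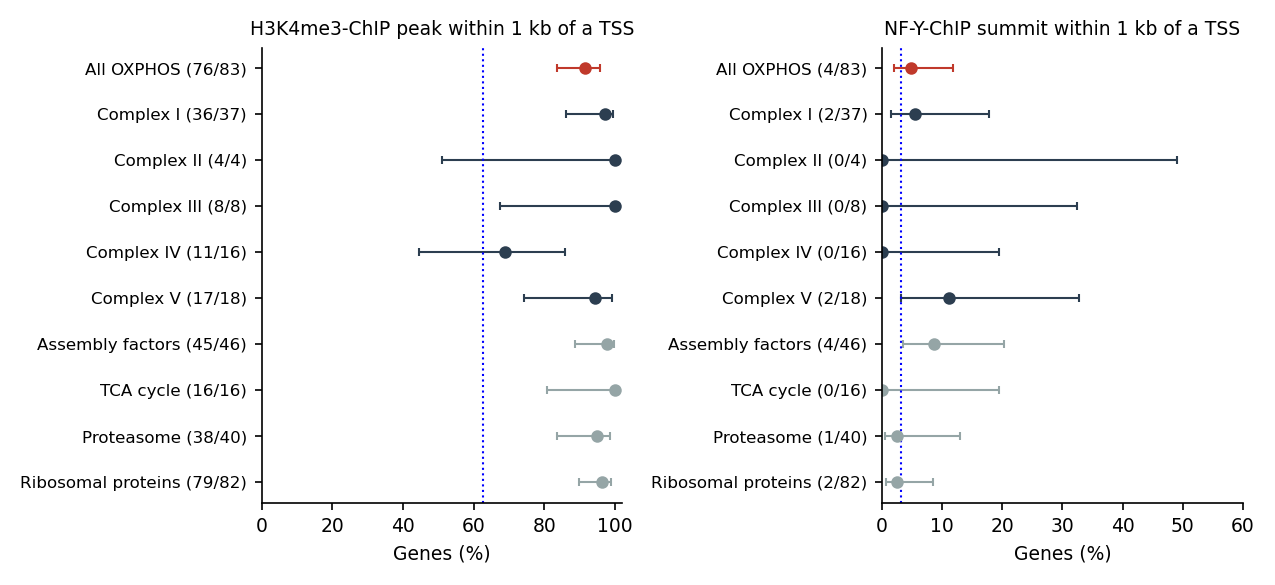
Share of genes with H3K4me3-ChIP peaks (left) or NF-Y-ChIP summits (right) up to 1000 bp from a TSS, in percent, for all OXPHOS entries, each complex and 4 other gene groups, with the number of genes in brackets, Wilson 95% intervals as bars and the share of all nuclear protein-coding genes as dotted lines. For H3K4me3-ChIP only the intervals of complexes II and IV reach the dotted line at 62.8%, and for NF-Y-ChIP the interval of all OXPHOS entries (1.89 to 11.7%) includes the line at 3.17%.

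The distance limit had no bearing on which OXPHOS genes were taken. All 4 summits were within 118 bp of a TSS, and the next nearest summit to any OXPHOS TSS was 12169 bp away at Atp5j2, followed by 12795 bp at Cox6b2, both far outside the limit. The same 4 genes, and no other, were found when a peak anywhere in the gene or in the 5 kb before it was counted. Their summits stood at a median of −27 bp (negative values are upstream of the TSS), whereas the median over the 695 genes with a summit was −62 bp.

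In complex I, the peak at Ndufb3, an accessory subunit of the membrane arm, was the strongest of the 4. It spanned chr1:58586242-58586547 with its summit 6 bp upstream of the TSS, at a fold enrichment of 9.77 over the local background and a −log10 p-value of 19.9. It ranked 132 of the 733 NF-Y-ChIP peaks by fold enrichment, and the median of the list was 6.75. Ndufa2, an accessory subunit of the matrix arm, had a peak at chr18:36744473-36744667 with a fold enrichment of 5.96 (rank 453, −log10 p-value 8.96) and its summit 16 bp downstream of the TSS. Within 100 bp of that summit lay 3 copies of CCAAT or ATTGG. Thus the gene with more copies of the motif had the weaker peak of these 2.

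Both complex I promoters were shared with a gene on the opposite strand. The TSS of Fam126b was 61 bp from that of Ndufb3 and 55 bp from the summit. The TSS of Ik, which encodes a splicing protein, was 99 bp from that of Ndufa2 and 115 bp from the summit. In both pairs the OXPHOS gene held the TSS nearest to the summit, but the Ndufb3 summit lay between the start sites and the Ndufa2 summit just inside Ndufa2, beyond both. A single summit this close to 2 start sites cannot be assigned to 1 gene from the position alone.

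In complex V, the peaks lay at the β and ε subunits of the catalytic F1 part. At Atp5b, which encodes the catalytic β subunit, the peak spanned chr10:128083013-128083245 with its summit 118 bp upstream of the TSS, a fold enrichment of 5.20 (rank 573) and a −log10 p-value of 9.49. At Atp5e, which encodes the ε subunit of the rotating stalk, the peak spanned chr2:174464089-174464295 with its summit 48 bp upstream, a fold enrichment of 5.37 (rank 539) and a −log10 p-value of 7.67. Both values were below the median of the NF-Y-ChIP list. Within 100 bp of the summit, Atp5b held 5 copies of the motif, and Atp5e held 2. Neither gene had a protein-coding gene starting on the opposite strand within 1 kb upstream, and the nearest such start at Atp5b belonged to the lincRNA Gm47438, at 303 bp. All 4 NF-Y-ChIP peaks overlapped an H3K4me3-ChIP peak, at H3K4me3-ChIP fold enrichments of 67.1 (Ndufa2), 28.0 (Ndufb3), 64.0 (Atp5b) and 58.4 (Atp5e). Such overlap was general, since 692 of the 695 genes with an NF-Y-ChIP summit were marked. Ndufb3, with the highest NF-Y-ChIP fold enrichment, had the lowest H3K4me3-ChIP value of the 4.

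**Figure D2:**
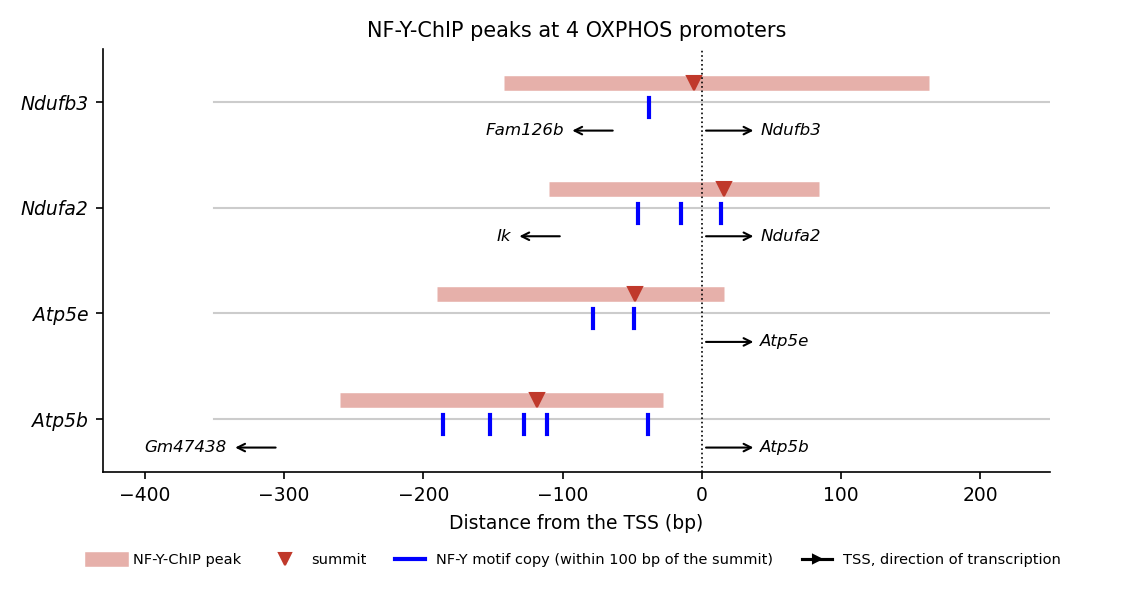
Map of the 4 OXPHOS promoters with an NF-Y-ChIP peak, in bp from the TSS of the OXPHOS gene (dotted line), showing the NF-Y-ChIP peak (pink), its summit (triangle), the NF-Y motif copies within 100 bp of the summit (blue ticks) and start sites with their direction (arrows). Summits stand between 118 bp upstream (Atp5b) and 16 bp downstream (Ndufa2), and at Ndufb3 and Ndufa2 a protein-coding gene starts in the opposite direction within 99 bp.

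H3K4me3-ChIP peaks were present at a TSS of 76 of the 83 OXPHOS entries (91.6%, 83.6 to 95.9%), against 62.8% of all nuclear protein-coding genes. This frequency was close to those of proteasome subunit genes (38 of 40) and cytosolic ribosomal protein genes (79 of 82), which are likewise used by nearly all cells. The marked entries comprised 36 of 37 in complex I, all 4 in complex II, all 8 in complex III, 11 of 16 in complex IV and 17 of 18 in complex V. A peak covered a TSS at 75 of the 76, near the share of all marked genes (96.4%), and the exception, Ndufb11, had its nearest peak base 70 bp away.

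The 7 entries without an H3K4me3-ChIP peak were Ndufa4l2, Cox6a2, Cox7a1, Cox7b2, Cox8b, Cox8c and 1 of the entries of Atp5o. Of these, Cox6a2, Cox7a1 and Cox8b are the heart and muscle forms of complex IV subunits, Cox7b2 and Cox8c are testis forms, and Ndufa4l2 is a hypoxia-induced relative of Ndufa4. The unmarked Atp5o entry (chr16:91684398-91926982) rests on 1 transcript whose true start is tagged as not found in the annotation, and its 5′ end lies 4705 bp from that of the other entry (chr16:91925214-91931687), which had a fold enrichment of 74.7. So each unmarked entry was either a tissue-restricted paralog or an entry without a known start. The testis form Cox6b2 was the only marked gene of the 7 listed tissue-restricted paralogs, at 7.57, the lowest value of any OXPHOS gene.

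The general form of each subunit was marked where the restricted form was not. Cox6a1 had a fold enrichment of 65.9 beside the unmarked Cox6a2, and Cox7a2 had 43.7 beside Cox7a1. Cox7b had 32.1 beside Cox7b2, and Cox8a had 67.0 beside Cox8b and Cox8c. Ndufa4 had 47.2 beside Ndufa4l2, and Cox6b1 had 38.4 beside 7.57 at Cox6b2. Thus the restricted paralogs account for all 5 unmarked genes of complex IV. Among subunits the symbol stems miss, the pairs were similar, with 66.2 at Cox4i1 and 3.84 at its lung form Cox4i2, and 69.1 at the cytochrome c gene Cycs and no peak at its testis form Cyct. The other missed subunits, Cyc1 (67.6) and Ndufab1 (27.5), were marked as well.

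Over the 76 marked entries the median H3K4me3-ChIP fold enrichment was 47.2 (95% interval 43.0 to 52.0), against 39.9 over all 13767 marked genes, and 52 of the 76 were above the latter. Proteasome and cytosolic ribosomal protein genes had like medians, 48.9 and 48.2. Peak width differed little, with medians of 1426 and 1404 bp. Medians by complex were 44.0 in complex I, 51.3 in complex II, 45.5 in complex III, 65.9 in complex IV and 50.2 in complex V. The genes of each complex spread widely around these medians and overlapped between complexes, as the plot of fold enrichment by complex shows.

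**Figure D3:**
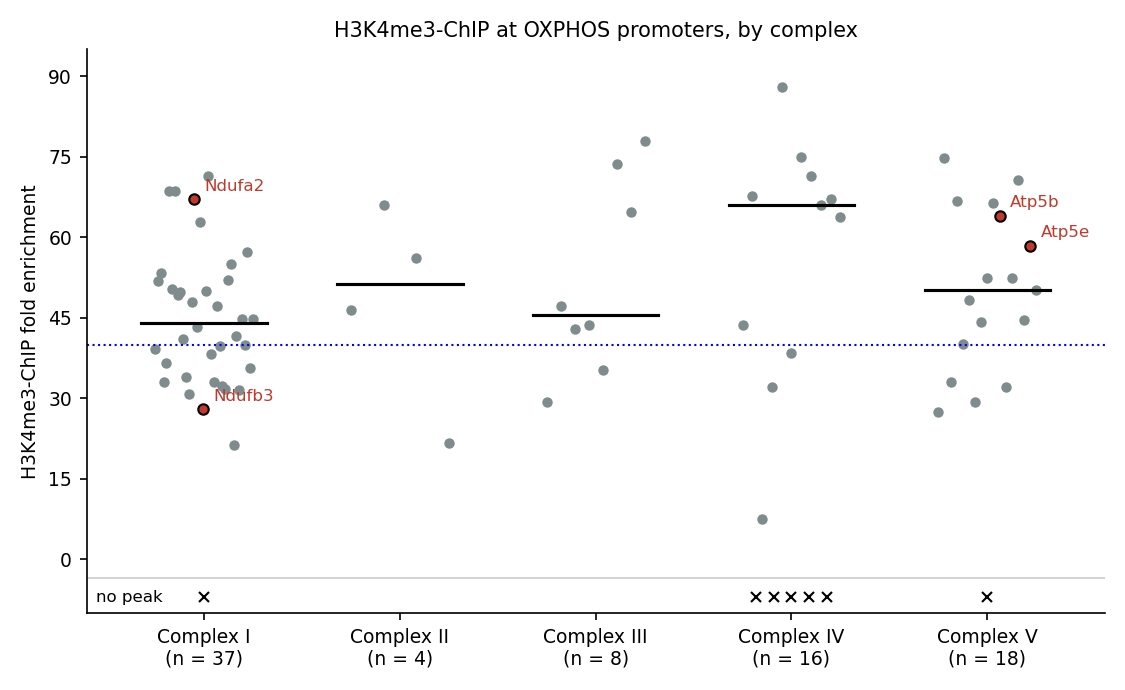
H3K4me3-ChIP fold enrichment of the strongest peak at a TSS for each OXPHOS entry (points) by complex, with the median of each complex (black lines), the median of all marked genes (dotted line, 39.9), entries without a peak (crosses) and genes with an NF-Y-ChIP summit in red. Values run from 7.57 (Cox6b2) to 87.9 (Cox6c), and 5 of the 7 crosses are in complex IV.

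In complex I, the highest values were 71.4 at Ndufv2, an iron-sulfur subunit of the electron input module, and 68.7 at Ndufb5, an accessory subunit of the membrane arm. Ndufb5 had 2 peaks. The value is from the peak upstream of the gene, with its summit at −483 bp, whereas the other peak covered a TSS. The lowest were 21.3 at Ndufs6, an accessory subunit of the matrix arm, and 28.0 at Ndufb3. The NF-Y-bound genes stood at both ends, with Ndufa2 among the highest and Ndufb3 among the lowest. Ndufa4, at 47.2, matches the complex I stem but is now counted as a complex IV subunit.

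In complex II, the anchor subunit Sdhc had 66.0 and the iron-sulfur subunit Sdhb had 56.1. The other anchor subunit, Sdhd, had 46.5, and the flavoprotein Sdha had 21.7. Sdha, the only one of the 4 below the median of all marked genes, had nearly the value of Ndufs6 in complex I. In complex III, the Rieske iron-sulfur protein Uqcrfs1 had 78.0 and the core protein Uqcrc1 had 73.6, whereas the small subunits Uqcr10 and Uqcrh had 35.3 and 29.2. The Rieske and core proteins stood above the small subunits in this complex, with the other core protein Uqcrc2 at 64.7 and Uqcrb, Uqcr11 and Uqcrq from 43.0 to 47.2.

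In complex IV, the small subunits Cox6c and Cox7c had 87.9 and 75.0. Cox6c was the highest of all OXPHOS genes, above 99.9% of marked genes. At the other end, Cox7b had 32.1 and Cox6b2 had 7.57. Cox7a2l, which matches the stem but promotes the assembly of supercomplexes rather than being a regular subunit of complex IV, had 71.4. In complex V, the stalk subunit Atp5o and the membrane subunit e (Atp5k) had 74.7 and 70.7. The lowest values were 27.4 at the stalk subunit d (Atp5h) and 29.4 at Atp5s, a coupling factor that is not a structural subunit. The NF-Y-bound genes Atp5b and Atp5e were the fifth and sixth highest of the 17 marked entries.

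Promoters shared with an oppositely directed gene, as at Ndufa2 and Ndufb3, were counted over all OXPHOS genes, which was decided on once values were known. A protein-coding gene started on the opposite strand within 1 kb upstream of a TSS at 29 of the 76 marked entries (38.2%, 28.1 to 49.4%), against 16.7% of all marked genes. Over all genes, marked or not, the shares were 29 of 83 OXPHOS entries (34.9%) and 11.0% of all nuclear protein-coding genes. On the same basis, 17 of 46 assembly factors (37.0%), 5 of 16 citric acid cycle genes (31.2%), 10 of 40 proteasome genes (25%) and 15 of 82 cytosolic ribosomal protein genes (18.3%) had such a neighbour. With the 5′ end of each gene as its only TSS, the numbers were 18 of 76 (23.7%) and 10.4%. The share was 15 of 36 in complex I, 3 of 4 in complex II, 4 of 8 in complex III, 0 of 11 in complex IV and 7 of 17 in complex V. The count of 0 holds for the complex IV stem only, since Ndufa4, now counted in complex IV, started 312 bp from Phf14, and Cox4i1, which the stem misses, started 101 bp from Emc8. NF-Y-ChIP summits lay at 2 of the 29 entries with such a neighbour and at 2 of the 47 without (6.90% and 4.26%), while the shares of all marked genes were 8.04% and 4.42%.

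Several neighbours, named after their values were seen, also encode parts of mitochondria or of the translation machinery. Sdhd started 98 bp from Timm8b, a chaperone of import into mitochondria, and Ndufs6 started 51 bp from Mrpl36, a protein of the mitochondrial ribosome. Ndufa7 started 10 bp from Rps28, a ribosomal protein gene, and Ndufs1 started 3 bp from Eef1b2, a translation elongation factor. Atp5j, a stalk subunit of complex V, started 93 bp from Gabpa, which encodes an ETS factor known to bind promoters of OXPHOS genes. One H3K4me3-ChIP peak can cover both start sites of such a pair, so its fold enrichment cannot be told apart between the genes.

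The position of the H3K4me3-ChIP summit was compared between these groups. It lay upstream of the nearest TSS of the gene at 10 of the 29 marked entries with an oppositely directed neighbour and at 3 of the 47 without, which were Ndufa3, Ndufb5 and Ndufc1. Over all marked genes the shares were 49.1% and 18.1%, in the same order as at OXPHOS genes. For fold enrichment the order of the medians was not shared. At OXPHOS genes they were 41.1 with such a neighbour (95% interval 35.3 to 47.2) and 50.4 without (44.6 to 58.4), and these intervals overlap. Over all marked genes they were 46.2 and 38.2. All 11 marked entries of complex IV, with a median of 65.9, were in the group without such a neighbour. Ndufb3 was among the 10 with an upstream summit, at −353 bp, on the side of Fam126b. Over all 76 entries the median position was 148 bp downstream of the TSS, against 122 bp for all marked genes.

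**Figure D4:**
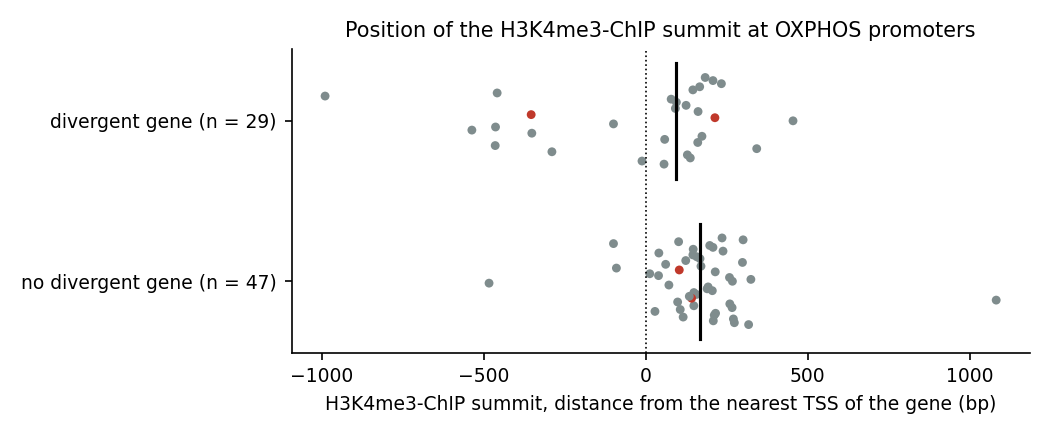
Position of the H3K4me3-ChIP summit from the nearest TSS of each marked OXPHOS gene in bp (negative values upstream), for genes with and without an oppositely directed protein-coding gene within 1 kb, with medians as black lines and NF-Y-bound genes in red. Summits upstream of the TSS make up 10 of 29 points in the upper row and 3 of 47 in the lower.

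The NF-Y motif itself had near the same share at OXPHOS promoters as at all marked genes. From 150 bp before to 50 bp after the gene's 5′ end, CCAAT or ATTGG (both strands searched) was present at 24 of the 76 marked entries (31.6%) and at 30.6% of all marked genes. An NF-Y-ChIP summit lay at 4 of those 24 (16.7%), against 12.2% of all marked genes with the motif. Summits were counted by the number of copies. They were found at 0 of 52 marked entries without a copy, 1 of 13 with 1 copy and 3 of 11 with 2 or more (27.3%). The shares over all marked genes were 1.86%, 5.58% and 25.8%, which have the same order as those of OXPHOS genes.

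Marked entries with 2 or more copies in this window and no NF-Y-ChIP peak were Ndufb11 and Atp5g1 with 4 copies each, Ndufs8 and Cox6b1 with 3 each, and Ndufv3, Cox6b2, Atp5h and Atp5s with 2 each. All had an H3K4me3-ChIP peak, from 7.57 at Cox6b2 to 53.4 at Ndufv3. Copies of the motif were thus also present where this list, at its unknown depth, held no peak. A match is a description of the sequence only.

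Motifs of other factors known from promoters of OXPHOS genes were counted in the same window, on both strands. The core of the NRF1 site, GCATGCGC, was at 6 of 76 marked entries (7.89%, 3.67 to 16.2%), against 4.33% of all marked genes. The ETS site CCGGAAG was at 15 (19.7%, 12.3 to 30.0%), against 13.8%, and the YY1 site AAGATGGC was at 6 (7.89%, 3.67 to 16.2%), against 3.36%. Of these 3 motifs, YY1 was the one for which the share of all marked genes fell below the interval, by a small margin. TATAAA was at 5 (6.58%), against 4.2%. The GC box GGGCGG, bound by SP1, was at 24 (31.6%, 22.2 to 42.7%), against 57.1%, which lies above the interval. In whole groups, counted with unmarked genes, the GC box was at 33 of 82 cytosolic ribosomal protein genes (40.2%), 19 of 40 proteasome genes (47.5%), 24 of 46 assembly factors (52.2%) and 8 of 16 citric acid cycle genes (50%), against 27 of 83 OXPHOS entries (32.5%, 23.4 to 43.2%) and 39.8% of all nuclear protein-coding genes, a share inside the OXPHOS interval. On this basis the YY1 site was at 7 OXPHOS entries (8.43%, 4.15 to 16.4%), against 2.37% of all genes. It was at 6 ribosomal protein genes (7.32%), 4 proteasome genes (10%), 5 assembly factors (10.9%) and 2 citric acid cycle genes (12.5%). The ETS site was at 15 OXPHOS entries (18.1%, 11.3 to 27.7%), against 9.46% of all genes and 26.8%, 30%, 34.8% and 31.2% of these groups in turn. The NRF1 core was at 7 OXPHOS entries (8.43%, 4.15 to 16.4%), against 2.95% of all genes and 3.66%, 5%, 8.70% and 0% in turn. The median GC content of the window was 58.5% in the marked OXPHOS entries and 63% in all marked genes, and its part in the GC box difference was not tested.

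**Figure D5:**
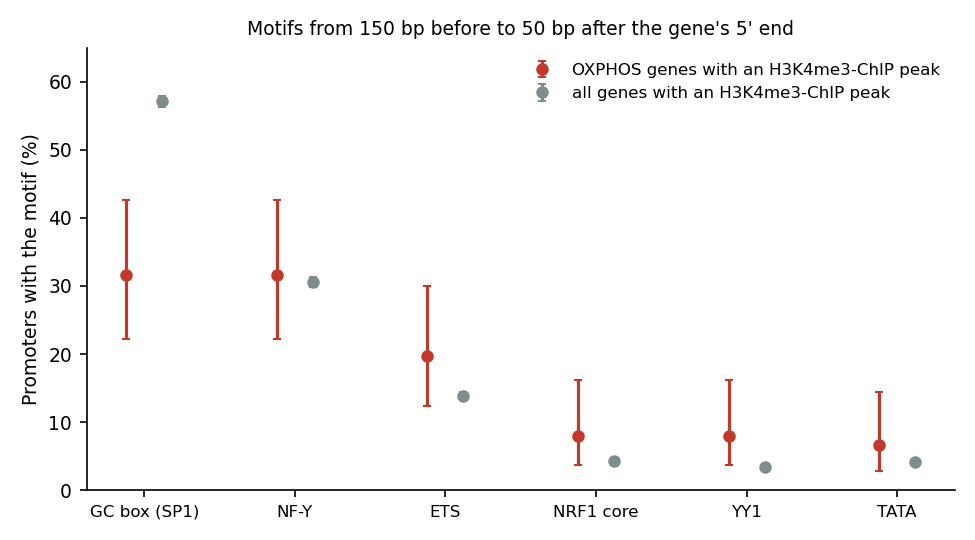
Share of promoters with each motif, in percent, from 150 bp before to 50 bp after the gene's 5′ end, for the 76 marked OXPHOS entries (red) and all 13767 marked genes (grey), with Wilson 95% intervals as bars. For the GC box the OXPHOS interval (22.2 to 42.7%) lies below the share of all marked genes (57.1%), and for NF-Y the shares nearly coincide (31.6 and 30.6%).

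The promoters of Uqcr11, a small subunit of complex III, and of Atp5k are shown as examples of the NRF1 and ETS motifs. Each is the stretch from 70 bp before to 30 bp after the 5′ end, on the strand of the gene in the GRCm38.p6 reference, with the NRF1 core or its reverse complement and CCGGAAG in capitals. Uqcr11 is at chr10:80406801-80406900 (minus strand), and Atp5k is at chr5:108434419-108434518 (minus strand). In Uqcr11 the ETS motif precedes the 5′ end and the NRF1 core follows it. In Atp5k the run GCGCATGCGC holds the NRF1 core on both strands in overlap.
Uqcr11: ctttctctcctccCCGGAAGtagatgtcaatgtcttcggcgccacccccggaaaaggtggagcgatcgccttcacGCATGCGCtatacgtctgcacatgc
Atp5k: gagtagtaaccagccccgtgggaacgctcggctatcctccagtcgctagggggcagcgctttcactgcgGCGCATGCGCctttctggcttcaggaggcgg

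Genes that build or regulate the complexes were read in the same way. Of 46 assembly factors, 45 had an H3K4me3-ChIP peak (all but Sdhaf1, of complex II), against 62.8% of all genes. Their median was 46.0, against 39.9 over all marked genes. An NF-Y-ChIP summit lay at 4 (8.70%, 3.43 to 20.3%), against 3.17% of all genes and 5.03% of marked genes, the latter inside the interval. Pet100, for complex IV, had a fold enrichment of 13.6 with its summit 43 bp upstream, and Ndufaf2, for complex I, had 11.4 with its summit 53 bp upstream. Ndufaf8, for complex I, had 8.02 with its summit 180 bp upstream, and Coa6, for complex IV, had 3.34 with its summit 97 bp upstream and a −log10 q-value of 1.02. Pet100, Ndufaf2 and Ndufaf8 thus exceeded the median of the NF-Y-ChIP list. They shared their promoters with Xab2, Ercc8 and Tepsin, whose TSSs were 189, 55 and 17 bp from the summits, so that Tepsin was nearer than Ndufaf8. Among 13 regulators of OXPHOS genes, all were marked, and 1 had an NF-Y-ChIP summit, Sp1 (fold enrichment 5.12, 252 bp upstream). All 16 genes of the citric acid cycle, which feeds electrons to the chain, were marked with a median of 51.4, and none had an NF-Y-ChIP summit (upper limit 19.4%).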

How the data were processed

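Chromatin of mouse cortices at E13.5 was sequenced after immunoprecipitation, with 1 library per antibody and 1 input. Trimming with Trimmomatic, alignment to mm10 (GRCm38) with Bowtie2 2.2.8, processing with Samtools and peak calling with MACS2 2.1.2, on single libraries with a p-value threshold for NF-Y-ChIP and a q-value threshold for H3K4me3-ChIP, were done by the authors, with versions from the submitters' processing notes. NF-Y-ChIP peaks started from a −log10 p-value of 3.62, and H3K4me3-ChIP peaks from a −log10 q-value of 1.35. The study names the input as its negative control for ChIP, and whether MACS2 was run with it is not given in the sources used here. The deposited fold enrichment is the ratio by which the summit exceeds its local background, and the deposited −log10 values are those of the p-value and q-value. Each list was matched to its antibody by the deposited score, which equals the rounded-down 10-fold −log10 p-value at every one of 733 NF-Y-ChIP peaks and the like value of q at every one of 18816 H3K4me3-ChIP peaks. Values were used as deposited, and the depth per library is unknown.

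Every transcript start in GENCODE M21 counted as a TSS. A gene was bound when an NF-Y-ChIP summit lay within 1000 bp of a TSS, and marked when any base of an H3K4me3-ChIP peak did, taking the peak with the highest fold enrichment. Motifs were searched from 150 bp before to 50 bp after the gene's 5′ end in GRCm38.p6 as distributed by RefSeq. Intervals are Wilson 95% for shares and order-statistic 95% for medians. The genes named are those with an NF-Y-ChIP peak, those without an H3K4me3-ChIP peak, the 2 highest and 2 lowest of each complex, tissue-restricted or non-structural matches, pathway genes with a summit or without a mark, and neighbours at bound promoters. Genes named for other reasons, such as motif copies or neighbours, were chosen after their values were seen. The members and lists were chosen with earlier results of these data known. Symbol stems matched 12 further annotated genes that are not protein-coding, which were left out. Functions were tested on simulated data. Python 3.11.15, pandas 2.3.3, NumPy 2.4.6, SciPy 1.17.1, pysam 0.24.0 and matplotlib 3.10.9 were used. Values of a few genes are not reported here.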

Additional observations from a re-analysis of the deposited data

How the results depend on the processing

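The 4 genes with an NF-Y-ChIP summit were the same under every alternative tried (thresholds of the peak list, distance limits, TSS sets, target rules and member sets) except the stronger 50% of peaks by fold enrichment, which kept 1, Ndufb3 (1.20%, against 1.69% of all genes). The number of marked entries and the median H3K4me3-ChIP fold enrichment stayed close under all alternatives, with 86.7% (stronger 50% of peaks, against 45.1% of all genes) to 98.6% (restricted and non-structural genes left out) of entries marked and medians of 46.5 to 47.6. The extended CCAAT consensus (purines before, then C or G and a purine after) left 12 of 83 entries with the motif, where CCAAT alone gave 27. Among marked genes it was at 10 of 76 entries (13.2%) and at 12.7% of all. With gene 5′ ends as the only TSSs, 18 marked entries (23.7%) had an oppositely directed neighbour, against 10.4% of all marked genes. This alternative was chosen after seeing the data, as were those of the GC box. In the main window the GC box was at 24 of 76 marked entries, against 57.1% of all marked genes. It was at 29 in a window from 250 bp before the 5′ end, against 61.4%. With the window at the TSS nearest to the H3K4me3-ChIP summit it was at 30, against 63.1%. With 1 library per antibody no replicate could be left out, and no input peak list was used. No paired analysis was possible because each group has 1 sample and no result comes from a test.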

Other observations

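The mitochondrial genome, which encodes the remaining OXPHOS subunits, held 1 NF-Y-ChIP peak and no H3K4me3-ChIP peak, a value chosen after it was seen. The NF-Y-ChIP peak spanned positions 15395 to 15615, of which 193 bp, with the summit at 15504, lay in the noncoding control region annotated by RefSeq (15423 to 16299) and 28 bp in the transfer RNA gene mt-Tp. The nearest protein-coding gene was mt-Cytb, the complex III subunit cytochrome b. Its fold enrichment was 5.66 (rank 502 of 733) and its −log10 q-value was 17.9. Read counts and the input signal at this position were not analysed here.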
